A study of Mus musculus with 18 samples.

Results

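The transcripts described here are 35 genes of neurons and synapses, chosen by symbol among the 55536 genes of the count table, and they were sorted by role into 14 presynaptic, 12 postsynaptic, 5 cytoskeletal and 4 other neuronal genes. They were read in RNA from microglia that had been enriched from mechanically dissociated mouse striatum with magnetic beads that bind CD11b. CD11b is a surface protein of myeloid cells, microglia included, and which cells in the samples the neuronal transcripts came from was not measured. The 18 samples came from 4 genotypes on a C57BL/6 background (C57Bl6/J in the study's methods): 5 from WT mice, 3 from Tyrobp-KO mice, 5 from Q175 mice and 5 from Q175;Tyrobp-KO mice. Q175 is a knock-in model of Huntington's disease, in which exon 1 of the human *HTT* gene with an expanded CAG repeat replaces the mouse sequence, and it was carried in the heterozygous state. *Tyrobp*, which encodes an adaptor of microglial receptors, was deleted in every cell and not only in microglia. The mice were adult, and they were not matched for sex: 1 of the 5 WT, 2 of the 3 Tyrobp-KO, 4 of the 5 Q175 and 2 of the 5 Q175;Tyrobp-KO samples were from females.

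Neurons signal at synapses by the fusion of transmitter-filled vesicles. The SNARE proteins (*Snap25*, *Stx1a*, *Vamp2*) drive the fusion, synaptotagmin (*Syt1*) senses the calcium, complexins (*Cplx1*, *Cplx2*) clamp and release the assembled SNAREs, and *Nsf* takes them apart afterwards. Synapsins (*Syn1*, *Syn2*) hold the vesicle pool, bassoon (*Bsn*) organises the release site, *Slc17a7* and *Slc32a1* load vesicles with glutamate or GABA, and *Gad1* and *Gad2* make GABA, the transmitter of the medium spiny neurons (MSNs) that form most of the striatum. On the receiving side, NMDA, AMPA and kainate receptor subunits (*Grin1*, *Grin2a*, *Grin2b*, *Gria1*, *Gria2*, *Grik1*) are held by the scaffold proteins of *Dlg4*, *Dlgap1*, *Shank3* and *Homer1*, and *Camk2a* and *Nrgn* encode a calcium-dependent kinase and a protein that binds calmodulin. Neurofilaments (*Nefl*, *Nefm*), *Map2*, *Tubb3* and *Stmn2* build or regulate the neuronal cytoskeleton. *Rbfox3* encodes the nuclear protein NeuN, *Eno2* the neuronal enolase, *Thy1* a surface glycoprotein and *Gng13* a gamma subunit of G proteins. Transcripts of some of these genes, such as *Camk2a* and *Map2*, are known to be carried into dendrites, whereas others stay close to the cell body.

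Promoter windows, which run from 250 bases before to 50 bases after a transcription start in RefSeq (build GRCm38.p6), were found for 24 of the 35 genes, with 31 windows in all, and the window of 19 genes held the gene start of GENCODE M21. The windows of *Cplx1* and *Gng13* are shown because these genes had the 2 largest differences between Q175 and WT, that of *Grin1* because its counts followed other samples than theirs did, and that of *Syn1* because it alone held TTCAGCACC, the left arm of the element bound by the repressor REST. Capitals mark matches on either strand to TTCAGCACC and to GGGCGG, the GC box. The windows are chr5:108549978-108550277 (minus strand) for *Cplx1*, chr17:25716922-25717221 (plus strand) for *Gng13*, chr2:25319138-25319437 (minus strand) for *Grin1* and chrX:20920869-20921168 (minus strand) for *Syn1*, and each is written 5′ to 3′ along its gene.
Cplx1: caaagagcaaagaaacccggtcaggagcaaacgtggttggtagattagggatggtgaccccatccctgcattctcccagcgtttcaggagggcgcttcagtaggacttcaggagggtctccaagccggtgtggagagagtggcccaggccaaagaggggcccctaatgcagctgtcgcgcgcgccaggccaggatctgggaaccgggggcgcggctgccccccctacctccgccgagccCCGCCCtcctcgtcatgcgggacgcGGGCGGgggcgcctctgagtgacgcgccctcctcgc
Gng13: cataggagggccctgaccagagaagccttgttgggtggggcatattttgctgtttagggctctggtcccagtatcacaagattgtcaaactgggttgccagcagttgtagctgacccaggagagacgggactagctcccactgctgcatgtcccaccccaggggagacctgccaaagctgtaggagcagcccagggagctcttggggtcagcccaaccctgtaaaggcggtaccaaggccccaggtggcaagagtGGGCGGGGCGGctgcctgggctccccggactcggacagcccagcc
Grin1: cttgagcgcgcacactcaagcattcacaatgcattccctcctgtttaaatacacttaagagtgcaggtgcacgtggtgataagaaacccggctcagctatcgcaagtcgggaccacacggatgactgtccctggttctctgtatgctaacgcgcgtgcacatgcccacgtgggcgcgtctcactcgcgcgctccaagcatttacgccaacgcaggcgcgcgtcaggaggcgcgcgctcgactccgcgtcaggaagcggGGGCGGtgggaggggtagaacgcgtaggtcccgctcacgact
Syn1: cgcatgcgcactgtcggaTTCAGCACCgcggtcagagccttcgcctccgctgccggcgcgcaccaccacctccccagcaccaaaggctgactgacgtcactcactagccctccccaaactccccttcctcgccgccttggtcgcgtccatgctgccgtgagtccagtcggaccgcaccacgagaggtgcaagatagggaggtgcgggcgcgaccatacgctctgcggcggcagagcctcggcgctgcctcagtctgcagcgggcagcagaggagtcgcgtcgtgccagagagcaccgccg
Of the 31 windows, 14 held a GC box, against 35.7% of all 32851 windows in the table, and 1 held TTCAGCACC, against 0.371%. *Cplx1* and *Gng13* each held 2 GC boxes, which share a base in *Gng13* and are apart in *Cplx1*, *Grin1* held 1, and *Syn1* held 0. These are matches of letters only, and no binding was measured.

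Total counts were between 11260410 and 29771983 per sample. Normalized counts are counts divided by the library size and edgeR's TMM factor and scaled to the mean library. *Tyrobp* itself had 6251 ± 2132 (SD, n = 5) normalized counts in WT samples and 369 ± 49.2 (SD, n = 3) in Tyrobp-KO samples. With the *Htt* mutation it had 5229.8 ± 1208 (SD, n = 5), or 242 ± 39.5 (SD, n = 5) where *Tyrobp* was also deleted, so that all 8 samples labelled as knockouts were below all 10 others. Each of 15 microglial markers exceeded 100 normalized counts in all 18 samples. The 35 neuronal genes together took 0.143% ± 0.0398 (SD, n = 5) of all counts in WT samples, 0.16% ± 0.093 (SD, n = 3) in Tyrobp-KO, 0.213% ± 0.0951 (SD, n = 5) in Q175 samples, and in Q175;Tyrobp-KO samples they took 0.168% ± 0.0669 (SD, n = 5). The lowest share was 0.0908% (95% Wilson interval 0.0895 to 0.0921) in Q175;Tyrobp-KO replicate 11 and the highest 0.368% (0.365 to 0.371) in Q175 replicate 14, and these intervals cover counting error only. In such bulk RNA, fewer neuronal cells or fragments and less RNA in each of them cannot be told apart.

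All 35 genes were detected in all 18 samples, and 24 of them exceeded 100 normalized counts in all of them. To compare genes with each other, levels were expressed as CPM (counts scaled to equal library totals) per kilobase of exon. On that scale the highest means over the 18 samples were those of *Camk2a* (22 ± 20.6, SD), *Cplx2* (20.4 ± 21.2), *Vamp2* (19 ± 5.49), *Tubb3* (16.4 ± 5.87) and *Nrgn* (13.8 ± 10.6). Neighbours in this order did not differ beyond their spread. The lowest were *Nefm* (0.977 ± 0.503), *Grik1* (1.23 ± 0.582) and *Stmn2* (2.02 ± 0.908). The steadiest level was that of *Nsf*, the ATPase that recycles SNAREs, which stayed between 3.47 and 5.63, while *Camk2a* ranged from 4.13 to 84.4. The vesicular GABA loader *Slc32a1* (3.61 ± 1.8) and the GABA-making enzymes *Gad1* (4.76 ± 1.28) and *Gad2* (4.02 ± 1.22) had higher means than the glutamate loader *Slc17a7* (2.13 ± 1.98), the one used by cortical neurons. The order turned in Tyrobp-KO replicate 20, where *Slc17a7* was above all 3 of them, and in Q175 replicate 14 it was above *Gad1*.

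Single samples set much of the spread. Q175 replicate 14 held the highest normalized count of all 18 samples for 20 of the 35 genes, 9 of them presynaptic, and Tyrobp-KO replicate 20 for 8 more. WT replicate 8 held the lowest for 16 genes and Tyrobp-KO replicate 15 for 11. Within their own groups, Q175 replicate 14 was highest for 28 genes, Tyrobp-KO replicate 20 for 32, Q175;Tyrobp-KO replicate 5 for 31 and WT replicate 6 for 25. The geometric mean of the 35 genes, in normalized counts, was 429.5, 403, 662, 484 and 247 in WT replicates 1, 2, 6, 7 and 8. In Q175 replicates 3, 4, 9, 14 and 17 it was 561, 611, 629, 1251 and 395. Tyrobp-KO replicates 15, 19 and 20 had 276, 369 and 1104, and Q175;Tyrobp-KO replicates 5, 11, 12, 13 and 16 had 856, 288, 419, 460.1 and 564. The groups overlapped, and values below are given in these orders of the replicates.

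**Figure D1:**
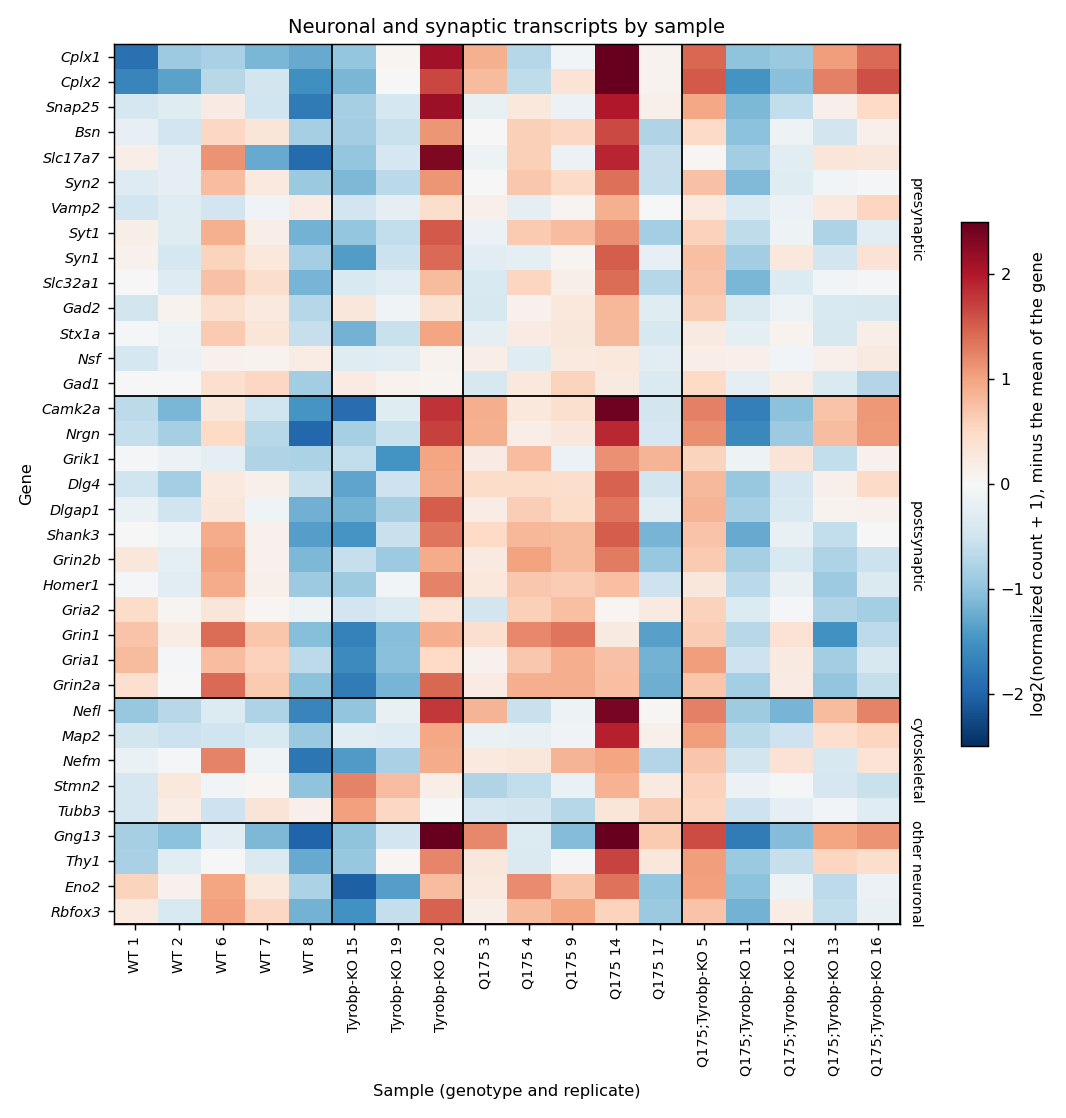
Rows are the 35 genes, sorted by role and by their Q175 against WT fold change, columns are the 18 samples, and color gives log2(normalized count + 1) minus the mean of the gene over all samples. Q175 replicate 14 and Tyrobp-KO replicate 20 are high in most rows, while WT replicate 6 is above the mean for Grin1 and Grin2a and below it for Cplx1 and Nefl.

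The genes did not move as 1 block across the samples. Over the 595 pairs of genes, the median Pearson's r of log2 normalized counts across the 18 samples was 0.63, and 42 pairs were below 0. *Cplx2* was closest to *Nefl* and *Cplx1* (r = 0.97 for both), *Thy1* (0.94), *Camk2a*, *Map2* and *Gng13* (0.92 each) and *Nrgn* (0.90), a set that takes genes from all 4 roles. *Grin1* was instead close to *Grin2a* (0.96), *Gria1* (0.94), *Rbfox3* (0.91) and *Eno2* (0.88), and its r with *Cplx2* was 0.07. *Tubb3* and *Stmn2* made a further pair (r = 0.72), and *Tubb3* ran against *Grin1* (r = -0.55). *Grin1* and *Stmn2* were singled out here after their values were seen, and these correlations are a description of 18 libraries that share 1 normalization.

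The comparison of Q175 with WT asks what the mutant *Htt* allele changes in the presence of *Tyrobp*. Of the 35 genes, 33 had a fold change above 0, against 46.7% of all 18266 genes tested, and their median log2 fold change was 0.42, against -0.02 over all genes. By total counts in place of TMM, 29 were above 0 and the median was 0.31, with *Nsf*, *Gad1*, *Grin1* and *Gria1* turning below 0. edgeR's quasi-likelihood test called 0 of the 35 at an FDR of 0.1 (background 0.0%), with adjusted p between 0.345 and 1. At an unadjusted p under 0.05, 12 genes were higher in Q175 (background 5.47%) and 0 were lower: *Snap25*, *Cplx1*, *Cplx2*, *Grik1*, *Dlg4*, *Dlgap1*, *Camk2a*, *Nrgn*, *Nefl*, *Map2*, *Thy1* and *Gng13*. DESeq2's Wald test, the tool of the study, called 6 of the 34 genes to which it gave an adjusted p (*Cplx1*, *Cplx2*, *Grik1*, *Camk2a*, *Nefl* and *Gng13*), against 1.28% of all genes, and gave none to *Map2*. Of these 6, all but *Cplx2* are among the synaptic genes that the study itself drew from these samples, so their direction and their calls are not independent evidence. The counts of 33, 12 and 6 include these genes, so the shares over all genes beside these counts are no test of enrichment. With each sample left out in turn DESeq2 called between 1 and 6 genes (0.432% to 2.18% of all genes), with 1 (*Cplx2*) without Q175 replicate 3, and *Cplx1* and *Cplx2* alone without Q175 replicate 14 and without each of WT replicates 1, 2, 7 and 8. With sex as a term, DESeq2 called 0 of the 35 (background 0.0%) and edgeR had 2 higher at an unadjusted p under 0.05 (background 1.14%). In that edgeR fit 34 of the 35 fold changes were above 0 and the median was 0.44. Without Q175 replicate 14, 25 of the 35 fold changes were above 0, 7 genes were higher at an unadjusted p under 0.05 (background 3.34%) and the median was 0.18, while it was 0.25 without WT replicate 8 and 0.79 without WT replicate 6.

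Among the 14 presynaptic genes, all 14 fold changes were above 0, or 12 by total counts, and those of the complexins were the largest. *Cplx1* (chr5:108518554-108550024, minus strand, GRCm38) had 58.8, 116, 124, 97.6 and 90.7 normalized counts in WT and 406, 132, 208, 1379 and 232 in Q175. Tyrobp-KO samples had 110.3, 226 and 943 and Q175;Tyrobp-KO samples 588, 108, 114, 449.6 and 586. Every Q175 sample was above every WT sample, which held for 2 of the 35 genes (*Cplx1* and *Map2*) and for 1.04% of all genes. The difference was 4.8-fold, 2.26 ± 0.56 (SE) on the log2 scale, with an adjusted p of 0.345 in edgeR and 0.0127 in DESeq2, and over the 31 alternatives the adjusted p ran from 0.00179 to 1. Without Q175 replicate 14 the log2 fold change of *Cplx1* was 1.31. In the 2-sided exact permutation test p was 0.00794, the smallest that 252 splits allow, and 0.665 after adjustment over all genes tested. *Cplx2* (chr13:54371349-54383917, plus strand), the more abundant complexin, had 391, 487, 762, 890.3 and 424 in WT and 2127, 794, 1558, 7887 and 1306 in Q175. It had 557, 1221 and 3889.9 in Tyrobp-KO and 3534, 437, 589.9, 2918 and 3723 in Q175;Tyrobp-KO. Q175 replicate 14 stood far above the rest, and Q175 replicate 4 lay below WT replicate 7, so the groups overlapped in 1 of 25 pairs. Its fold change was 4.58 (2.2 ± 0.55 (SE), log2), with an adjusted p of 0.345 in edgeR, 0.0127 in DESeq2 and from 0.00179 to 1 over the alternatives, and 1.27 on the log2 scale without Q175 replicate 14.

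*Vamp2*, the vesicle SNARE, had 926, 1044, 928, 1207 and 1495 in WT, 930.1, 1106 and 1739.7 in Tyrobp-KO, 1414, 1099, 1354, 2396 and 1299.6 in Q175 and 1519, 997, 1162, 1535 and 1876 in Q175;Tyrobp-KO. The WT and Q175 ranges overlapped, and its log2 fold change of 0.42 ± 0.22 (SE) did not pass edgeR's test (adjusted p = 0.896). It was -0.0016 with a glial score (the mean of the scaled levels of astrocyte and oligodendrocyte markers) as a term. The other SNARE genes were unequal: *Snap25* had a log2 fold change of 1.1 ± 0.46 (SE) and *Stx1a* one of 0.08 ± 0.28 (SE). *Syt1* (0.36 ± 0.4 (SE)), *Syn1* (0.34 ± 0.38 (SE)), *Syn2* (0.51 ± 0.37 (SE)), *Bsn* (0.66 ± 0.4 (SE)) and the glutamate loader *Slc17a7* (0.65 ± 0.58 (SE)) had values above 0 with wide errors. The genes of GABA handling lay closer to 0, with 0.01 ± 0.27 (SE) for *Gad1*, 0.18 ± 0.28 (SE) for *Gad2* and 0.31 ± 0.42 (SE) for *Slc32a1*, and *Nsf* had 0.05 ± 0.18 (SE). None of these 11 genes passed the FDR by edgeR or DESeq2.

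Among the 12 postsynaptic genes, 11 fold changes were above 0, or 9 by total counts, and the calcium-signalling pair *Camk2a* and *Nrgn* had the largest. *Camk2a* had 1358, 971, 2623, 1517 and 774 normalized counts in WT and 4034, 2573, 2839, 11641 and 1556 in Q175. The Tyrobp-KO samples had 569, 1745 and 7534 and the Q175;Tyrobp-KO samples 5143, 657, 1049.8, 3516 and 4572. The lowest Q175 samples lay within the WT range. Its fold change was 3.08 (1.62 ± 0.51 (SE), log2), the adjusted p was 0.414 in edgeR, 0.0882 in DESeq2 and from 0.0178 to 1 over the alternatives, and the log2 value without Q175 replicate 14 was 0.9. *Nrgn* had 187, 159, 399, 176 and 71.6 in WT and 524, 317, 344, 1056 and 213 in Q175. In Tyrobp-KO it had 159, 192 and 926 and in Q175;Tyrobp-KO 640.1, 91.8, 150.3, 484 and 595. WT replicate 6 exceeded 3 of the Q175 samples, and the log2 fold change of 1.28 ± 0.48 (SE) had an adjusted p of 0.582 in edgeR and 0.292 in DESeq2.

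*Grik1* (chr16:87895900-88290265, minus strand), a kainate receptor subunit, had 134, 123, 118, 81.5 and 78.6 in WT, 89.1, 48.2 and 272 in Tyrobp-KO, 158, 235, 124, 302 and 248 in Q175 and 203, 126, 172, 89.7 and 147 in Q175;Tyrobp-KO. It did not share the peak in Q175 replicate 14 to the same degree, since Q175 replicates 4 and 17 were nearly as high. The log2 fold change was 0.98 ± 0.28 (SE), or 0.81 without Q175 replicate 14, with an adjusted p of 0.365 in edgeR, 0.0882 in DESeq2 and from 0.00987 to 1 over the alternatives. The scaffold genes had log2 fold changes of 0.84 ± 0.33 (SE) for *Dlg4*, which encodes PSD-95, 0.8 ± 0.32 (SE) for *Dlgap1*, 0.62 ± 0.45 (SE) for *Shank3* and 0.31 ± 0.33 (SE) for *Homer1*, with adjusted p in edgeR between 0.628 and 0.999. The NMDA receptor subunits were at 0.01 ± 0.48 (SE) for *Grin1*, -0.03 ± 0.44 (SE) for *Grin2a* and 0.47 ± 0.42 (SE) for *Grin2b*. The AMPA receptor subunits were at 0.01 ± 0.37 (SE) for *Gria1* and 0.11 ± 0.23 (SE) for *Gria2*. *Grin1* spanned 759 to 4159 normalized counts in WT and 616 to 3981 in Q175, nearly the same range.

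The 5 cytoskeletal genes were the least alike of the 4 roles, with a median r of 0.31 between their pairs. *Nefl* (chr14:68083863-68089095, plus strand), the light neurofilament chain, had 116, 139, 179, 132 and 71.6 normalized counts in WT and 409.7, 154, 208, 1179 and 232 in Q175. It had 113, 198 and 768 in Tyrobp-KO and 541, 121, 100.2, 393 and 539 in Q175;Tyrobp-KO. Of 25 pairs of a Q175 and a WT sample, the Q175 sample was higher in 24, and the difference was 3.38-fold (1.76 ± 0.51 (SE), log2; 0.95 without Q175 replicate 14). The adjusted p was 0.372 in edgeR, 0.0531 in DESeq2 and from 0.015 to 1 over the alternatives. *Nefm*, the medium chain, had a log2 fold change of 0.28 ± 0.47 (SE), and its exons share bases with *Nefl* on the opposite strand, so that reads there cannot be assigned in libraries without strand.

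*Map2* (chr1:66175273-66442583, plus strand), a microtubule protein of dendrites, had 2504, 2390.2, 2435, 2652 and 1807 in WT and 3077, 3024, 3243, 13232 and 3781 in Q175, with no overlap. In Tyrobp-KO it had 2834, 2756 and 6731 and in Q175;Tyrobp-KO 7094, 2162, 2402, 4614 and 5012. Outside Q175 replicate 14 the Q175 samples were within a narrow band just above WT, and the log2 fold change of 1.15 ± 0.4 (SE) (adjusted p = 0.5, edgeR) was 0.46 without it, with a 2-sided exact permutation p of 0.00794 and 0.665 after adjustment over all genes. *Tubb3*, a neuronal tubulin, had 403, 610.3, 375, 671 and 585 in WT, 1093, 765 and 542 in Tyrobp-KO, 399, 388, 328, 666 and 818 in Q175 and 781, 376, 461, 514 and 434 in Q175;Tyrobp-KO. The highest value was in Tyrobp-KO replicate 15, which was the lowest Tyrobp-KO sample for 28 of the 35 genes. Its log2 fold change between Q175 and WT was -0.04 ± 0.26 (SE), and that of *Stmn2*, a regulator of microtubules in growing axons, was 0.2 ± 0.33 (SE).

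Of the 4 other neuronal genes, *Gng13* (chr17:25717171-25719406, plus strand) had the largest fold change of all 35. It also had the lowest mean count in WT, with 21.6, 18.6, 32.5, 17.4 and 9.07 in WT and 91.2, 30.5, 17.8, 304 and 62 in Q175. The Tyrobp-KO samples had 18.9, 27.6 and 223 and the Q175;Tyrobp-KO samples 123, 11, 17.8, 78.9 and 86.9. Q175 replicates 4 and 9 lay within the WT range. The difference was 4.99-fold (2.32 ± 0.68 (SE), log2), or 1.3 on the log2 scale without Q175 replicate 14 and 1.24 with sex as a term, and the adjusted p was 0.376 in edgeR, 0.0489 in DESeq2 and from 0.00501 to 1 over the alternatives. *Gng13* shares exonic bases with *Chtf18* on the opposite strand.

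*Thy1* had 95.1, 139, 166, 129.7 and 68.6 in WT, 85.8, 173 and 391 in Tyrobp-KO, 204, 130.4, 160.1, 543 and 204 in Q175 and 346, 86.8, 111, 243 and 225 in Q175;Tyrobp-KO, and its log2 difference between Q175 and WT was 1.04 ± 0.38 (SE) (adjusted p = 0.575, edgeR). Over the 18 samples its r with *Cplx2* was 0.94. *Rbfox3* had 651, 425, 1122, 789 and 242 in WT, 192, 367 and 1535 in Tyrobp-KO, 609.7, 957, 1092, 807 and 288 in Q175 and 900.3, 243, 625, 359 and 483 in Q175;Tyrobp-KO. Its WT and Q175 values covered nearly the same range, and its log2 fold change was 0.19 ± 0.41 (SE) (adjusted p = 0.999, edgeR). *Eno2* had 678, 495, 922, 556 and 265 in WT, 111, 177 and 786 in Tyrobp-KO, 544, 1045, 750.3, 1184 and 236 in Q175 and 936, 225, 422, 292 and 419 in Q175;Tyrobp-KO, with a log2 value for Q175 against WT of 0.35 ± 0.4 (SE) (adjusted p = 0.999, edgeR). For *Rbfox3* and *Eno2* the highest WT sample was replicate 6. It was also the highest WT sample for *Cplx1* (124), where every WT sample was below every Q175 sample.

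**Figure D2:**
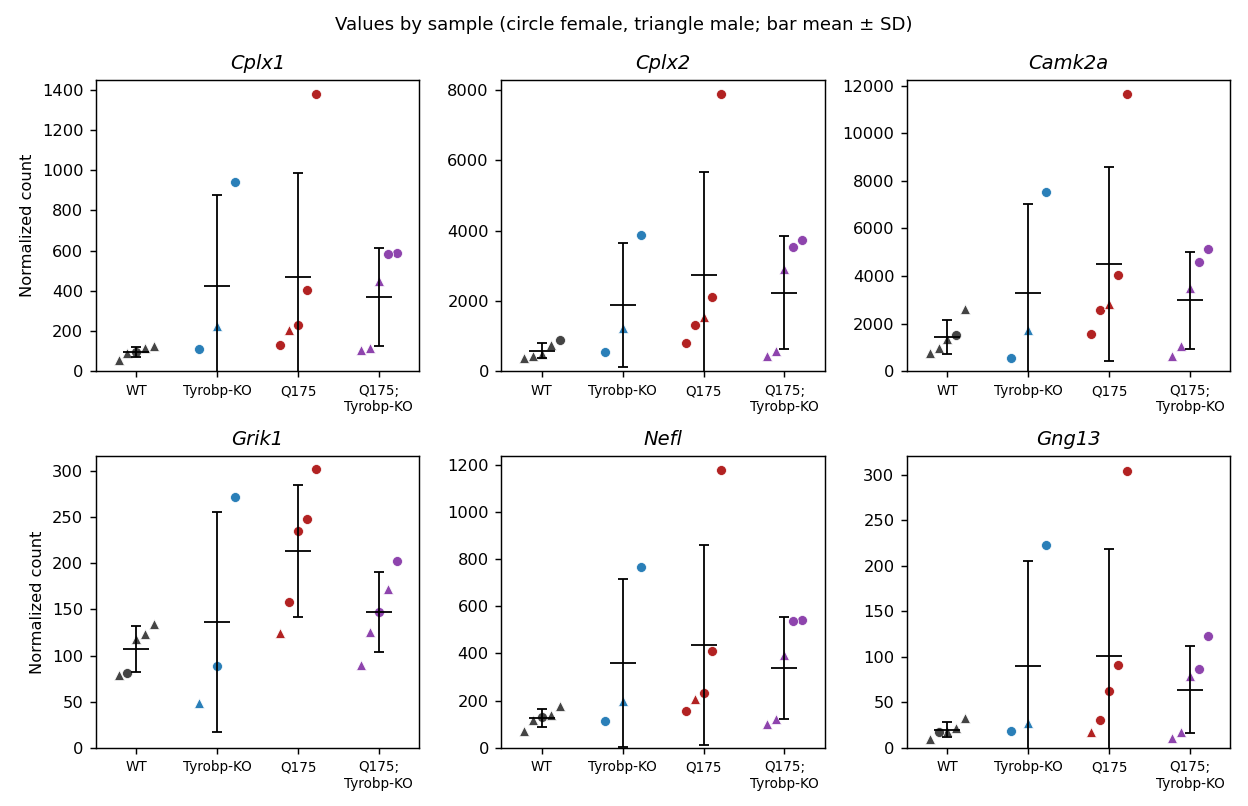
Normalized counts of the 6 genes that DESeq2 called between Q175 and WT, by genotype, with 1 point per sample (circle female, triangle male) and the mean ± SD as bars, cut at the axis where they would pass below 0. Q175 replicate 14 is the highest Q175 sample in all 6 panels, by the least in that of Grik1, and Tyrobp-KO replicate 20 lies above the other 2 Tyrobp-KO samples in all 6.

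Sex and genotype were partly confounded in this comparison. Within males, the only Q175 sample had 208 normalized counts of *Cplx1*, against 58.8 to 124 in 4 WT males. Within females, 4 Q175 samples had 132 to 1379, against 97.6 in the only WT female. For *Cplx2* the Q175 male had 1558, against at most 762 in WT males, and the Q175 females 794 to 7887, against 890.3 in the WT female. For *Gng13*, by contrast, the Q175 male had 17.8, inside the range of 9.07 to 32.5 of the WT males. For *Grik1* the Q175 male was also inside that range, with 124 against 78.6 to 134. For *Camk2a* (2839 against at most 2623) and *Nefl* (208 against at most 179) the Q175 male was above the WT males. With 1 Q175 male and 1 WT female, no test within a sex was made.

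Markers of other cells moved beside these genes. The level of 15 astrocyte markers, as a geometric mean of normalized counts, was 459.8, 451, 389.7, 623 and 662 in WT and 1297, 778, 898, 3017 and 1014 in Q175, with all 25 pairs higher in Q175, and all 15 markers had a fold change above 0, 10 of them called by DESeq2. The most abundant, the glutamate transporter gene *Slc1a2*, had 6214, 5067, 4280.4, 11454 and 10019 in WT and 29279, 9229, 19983, 84357 and 13154 in Q175. Levels of 10 oligodendrocyte markers were 2594, 2719.6, 2006, 1588 and 4843 in WT and 3283, 3411, 2663, 3579 and 6891 in Q175, with 20 of 25 pairs higher in Q175, and levels of 14 markers of D1 and D2 MSNs were 247, 204, 689, 284 and 126 and 430, 608, 616, 517 and 138, with 17 of 25. Levels of 8 cortical excitatory markers were 25.4, 24.8, 34.6, 16.1 and 14.5 in WT and 19.8, 31.4, 25, 67 and 33.6 in Q175, with 18 of 25 pairs higher in Q175, and levels of 9 interneuron markers were 7.04, 10.2, 18.6, 4.62 and 4.27 and 8.38, 14.2, 9.78, 39.2 and 8.62. The level of 15 microglial markers was 13418, 16578, 12745, 15690.2 and 15661 in WT and 15475, 9209, 14003, 12300.5 and 18661 in Q175. Levels of 7 markers of oligodendrocyte precursors were 115, 198, 137, 225 and 139.7 in WT and 257, 354, 277, 252 and 266 in Q175, all 25 pairs being higher in Q175, and those of 8 endothelial markers 65.1, 119, 82.9, 37.1 and 35.3 and 49.1, 57.1, 56.5, 53.7 and 58.3. Of the cortical list *Mef2c*, which microglia also express, had at least 7372 normalized counts in every sample, and 4 of its other 7 genes, like 4 of the 9 interneuron genes, were at 0 in some samples. The part of these other cells in the differences of the neuronal genes was not tested. With a score of the astrocyte and oligodendrocyte markers as a term, the median log2 fold change of the 35 genes between Q175 and WT was 1.03, edgeR called 0, and DESeq2 called *Grin1* and *Rbfox3* (background 1.78%), both higher in Q175. Without that term their log2 fold changes were 0.01 and 0.19 (edgeR). The score was -0.7323, -0.6802, -1.225, -1.194 and 0.4359 in WT and 0.405, 0.06339, -0.1769, 1.181 and 1.267 in Q175. It was thus partly confounded with genotype, and this fit cannot fully separate them.

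By role, the presynaptic level was 392 ± 123 (SD, n = 5) normalized counts in WT, 556 ± 407 (SD, n = 3) in Tyrobp-KO, 613 ± 334 (SD, n = 5) in Q175 samples, and 479 ± 168 (SD, n = 5) in Q175;Tyrobp-KO samples. The postsynaptic level was 845 ± 339.6 (SD, n = 5), 925 ± 834 (SD, n = 3), 1246 ± 475 (SD, n = 5) and 828 ± 380 (SD, n = 5) in the same order. For the cytoskeletal genes it was 297 ± 73.8 (SD, n = 5), 455 ± 160.1 (SD, n = 3), 468 ± 255 (SD, n = 5) and 413 ± 158 (SD, n = 5). The other neuronal genes were at 174 ± 69.3 (SD, n = 5), 261 ± 269.6 (SD, n = 3), 312 ± 183 (SD, n = 5) and 228 ± 132 (SD, n = 5). In all 4 roles the groups overlapped, and between 19 and 20 of 25 pairs were higher in Q175 than in WT. The difference of the mean log2 levels, Q175 minus WT, was 0.57 for presynaptic, 0.56 for postsynaptic, 0.57 for cytoskeletal and 0.79 for other neuronal genes.

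**Figure D3:**
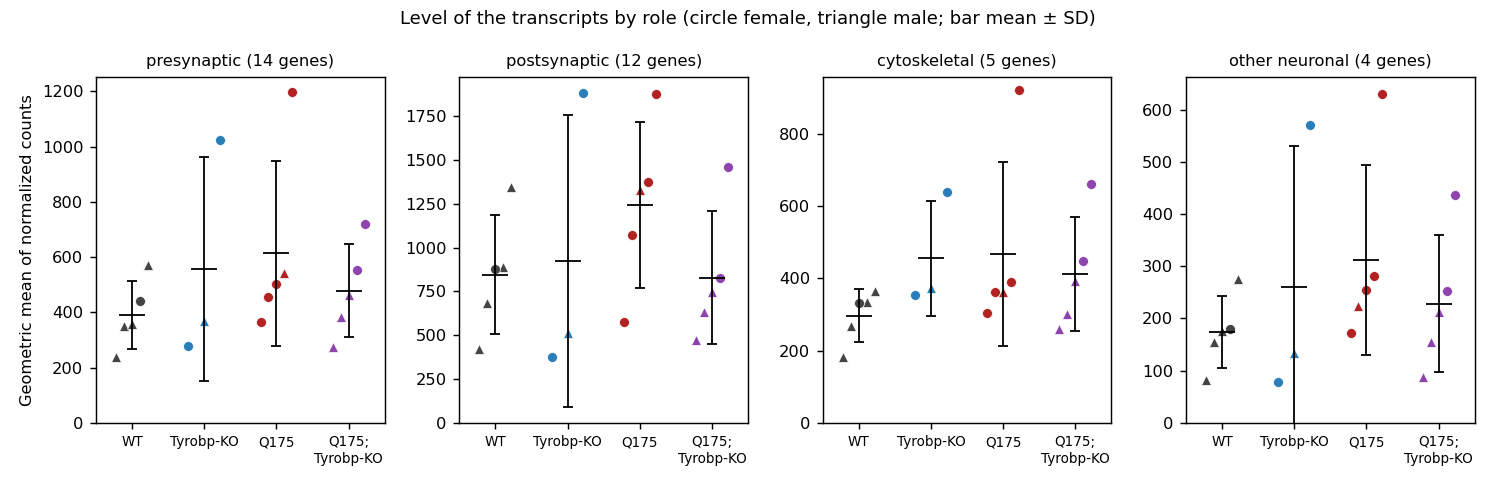
Geometric mean of the normalized counts of the genes of each role, by genotype, with 1 point per sample (circle female, triangle male) and bars for the mean ± SD. Points of the 4 genotypes overlap in all 4 panels, and Tyrobp-KO replicate 20 lies above the other 2 Tyrobp-KO samples in each.

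Tyrobp-KO was compared with WT, with the same WT samples as above, to ask what the deletion does without the *Htt* mutation. Of the 35 fold changes 26 were above 0 (background 52.2%), with a median of 0.26 on the log2 scale against 0.02 over all genes. edgeR called 0 (background 0.0222%), and 7 genes were higher at an unadjusted p under 0.05 (background 3.66%): *Cplx1*, *Cplx2*, *Nefl*, *Stmn2*, *Map2*, *Tubb3* and *Gng13*. DESeq2 called *Cplx1* alone (background 0.935%) of the 34 genes to which it gave an adjusted p, and gave none to *Gng13*. *Cplx1* had a log2 fold change of 2.13 ± 0.56 (SE) in edgeR and adjusted p of 0.565 in edgeR and 0.0603 in DESeq2. Without Tyrobp-KO replicate 20, which had the highest *Cplx1* count of the 3, it was 0.74, and over the 19 alternatives its adjusted p ran from 0.0603 to 1. *Cplx2* had 1.68 ± 0.52 (SE), *Nefl* 1.49 ± 0.54 (SE) and *Gng13* 2.16 ± 0.75 (SE), or 0.54, 0.24 and 0.18 without that sample. The median over the 35 genes was -0.62 without Tyrobp-KO replicate 20, with 10 of 35 fold changes above 0, and 0.57 without replicate 15, 0.47 without replicate 19, 0.44 without WT replicate 6 and 0.12 without WT replicate 8. It was -0.11 with sex as a term, and 0.11 by total counts, with 22 of 35 above 0.

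Of the cytoskeletal genes, *Tubb3* (log2 fold change 0.59 ± 0.27 (SE)) and *Stmn2* (0.95 ± 0.32 (SE)) were above every WT sample in Tyrobp-KO replicates 15 and 19 and within the WT range in replicate 20, while *Nefm* was at -0.22 ± 0.68 (SE). *Stmn2* had 456, 328 and 217 normalized counts in Tyrobp-KO against 144, 232, 183, 199 and 95.8 in WT, with 14 of 15 pairs higher in Tyrobp-KO, and its values are given because they were seen to differ from those of the complexins. *Map2* had a log2 fold change of 0.8 ± 0.31 (SE), or 0.2 without replicate 20, and all 3 Tyrobp-KO samples were above all 5 WT samples, as for 2.18% of all genes, with a 2-sided exact permutation p of 0.0179, the smallest that 56 splits allow, and 0.71 after adjustment over all genes. *Tubb3*, *Stmn2* and *Map2* did not pass the FDR by edgeR or DESeq2 in this comparison. The receptor subunits were at -0.77 ± 0.63 (SE) for *Grin1*, -0.3 ± 0.71 (SE) for *Grin2a*, -0.13 ± 0.51 (SE) for *Grin2b*, -0.82 ± 0.49 (SE) for *Gria1*, -0.29 ± 0.25 (SE) for *Gria2* and 0.34 ± 0.49 (SE) for *Grik1*, with adjusted p in edgeR between 0.874 and 0.999. *Eno2* was at -0.71 ± 0.6 (SE). The astrocyte level was 424, 854 and 2401 in the Tyrobp-KO samples, the MSN level 138, 220 and 647 and the cortical excitatory level 48.6, 22.2 and 99.1, all highest in replicate 20.

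**Figure D4:**
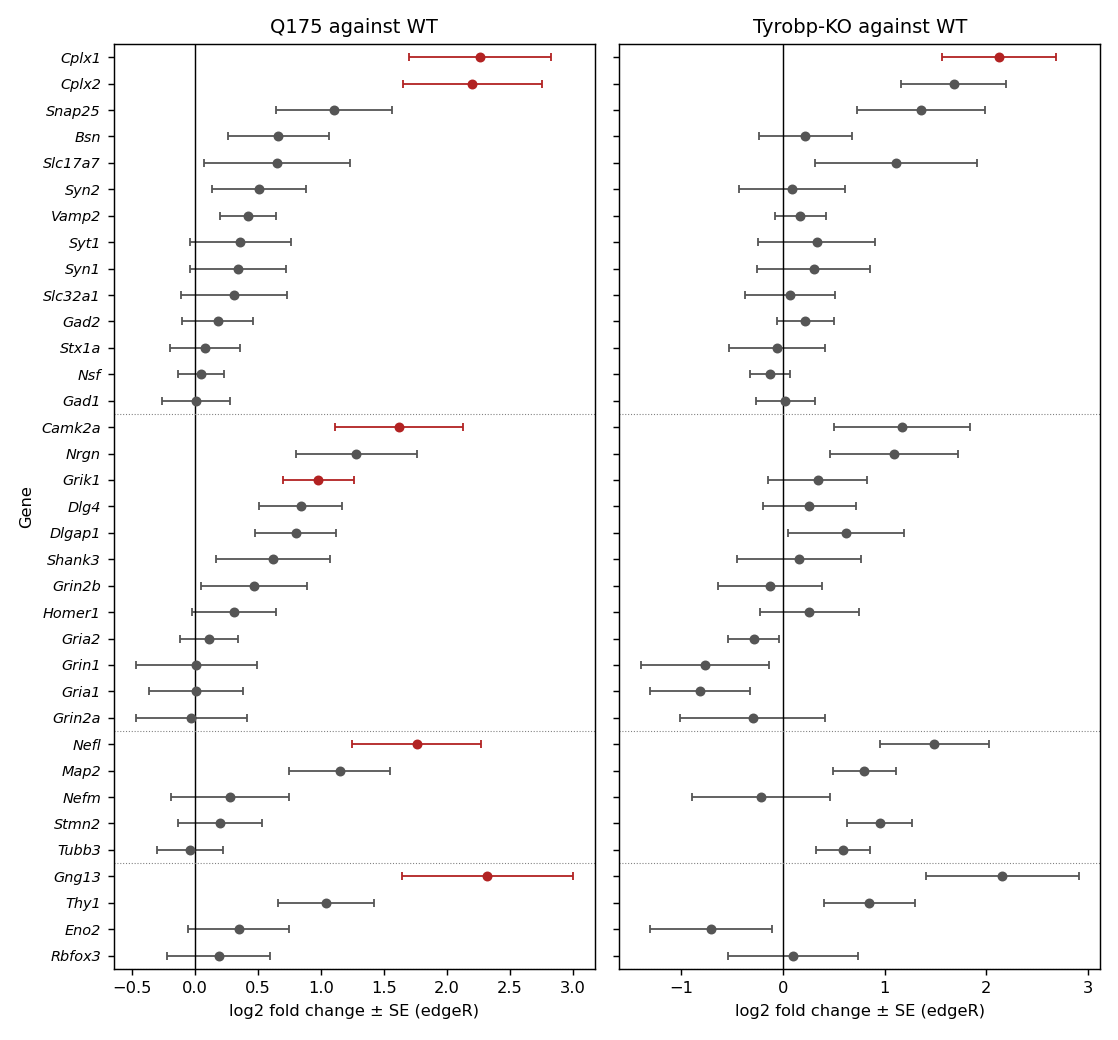
Log2 fold change ± SE (edgeR) of the 35 genes between Q175 and WT and between Tyrobp-KO and WT, which share their WT samples, with genes in rows, sorted by role, and genes with an adjusted p under 0.1 in DESeq2 in red. DESeq2 gave no adjusted p to Map2 in the left panel and to Gng13 in the right. Cplx1, Cplx2, Nefl and Gng13 have the largest values in both panels, while Grin1 and Gria1 are at 0.01 in the left panel, where total counts would put them below 0, and at -0.77 and -0.82 in the right.

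Q175;Tyrobp-KO was compared with Q175 to ask what the deletion does in the presence of the *Htt* mutation. Here 34 of the 35 fold changes were below 0, and 1 (*Nsf*) was above it, against 44.9% of all genes above 0. The median was -0.48 on the log2 scale, against -0.05 over all genes. edgeR and DESeq2 each called 0 of the 35 (background 0.0111% and 0.232%), and 2 genes were lower at an unadjusted p under 0.05 (background 4.56%), the NMDA receptor subunit *Grin2b* (-0.93 ± 0.41 (SE)) and the scaffold *Homer1* (-0.75 ± 0.28 (SE)), both with an adjusted p of 0.533 in edgeR. *Homer1* had 1277, 1699.8, 1656, 1796 and 744 normalized counts in Q175 and 1304, 667, 945, 573 and 828 in Q175;Tyrobp-KO, with 4 of 25 pairs higher in the latter. The genes with the largest values between Q175 and WT had log2 fold changes of -0.34 ± 0.67 (SE) for *Cplx1*, -0.27 ± 0.7 (SE) for *Cplx2*, -0.59 ± 0.63 (SE) for *Camk2a*, -0.35 ± 0.61 (SE) for *Nefl* and -0.66 ± 0.78 (SE) for *Gng13*. For these 5 genes, Q175;Tyrobp-KO replicates 5, 13 and 16 were above every WT sample, and replicates 11 and 12 were below the highest WT sample. Without Q175 replicate 14 the median over the 35 genes was -0.09 with 14 of 35 above 0, without Q175;Tyrobp-KO replicate 5 it was -0.76, without Q175;Tyrobp-KO replicate 11 -0.29, and with sex as a term -0.25 with 10 above 0. The number of genes lower at an unadjusted p under 0.05 was 9 without Q175 replicate 17 (background 9.33%) and 13 without Q175;Tyrobp-KO replicate 5 (background 10.8%), and edgeR called none of them. The MSN level ran from 132 over a median of 210.3 to 478 in Q175;Tyrobp-KO, and the astrocyte level was 2028, 428, 410.2, 1345 and 1314, with 5 and 12 of 25 pairs higher than in Q175.

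Between Q175;Tyrobp-KO and Tyrobp-KO, 9 of the 35 fold changes were above 0 (background 48.7%), with a median of -0.17 against -0.01 over all genes. edgeR called 0 (background 0.0%) and DESeq2 called 0 of the 33 genes with an adjusted p (background 4.65%), and *Stmn2* alone was lower at an unadjusted p under 0.05 (log2 fold change -0.83 ± 0.32 (SE), adjusted p = 0.326 in edgeR, background 8.24%). The direction turned with 1 library: without Tyrobp-KO replicate 20 the median was 0.88 and 31 of 35 fold changes were above 0. Without each of the other samples it lay between -0.52 and -0.0043, by total counts it was 0.04 with 19 of 35 above 0, and with sex as a term 0.09 with 23 above 0. For the interaction of the *Htt* mutation and the deletion, over all 4 groups, 3 of the 35 terms were above 0 (background 53.3%) and the median was -0.74 against 0.04 over all genes. edgeR and DESeq2 each called 0 (background 0.0% and 0.0107%), and *Cplx1* (-2.43 ± 1.0 (SE)) and *Gng13* (-2.78 ± 1.22 (SE)) had an unadjusted p under 0.05 with adjusted p of 0.716 for both (background 3.02%). Without Tyrobp-KO replicate 20 the terms were -1.08 for *Cplx1* and -0.84 for *Gng13*, and the median over the 35 genes was 0.04. By total counts, which moved the median of all genes to 0.15, the median of the 35 was -0.53. With sex as a term the median was -0.29 with 10 terms above 0, *Cplx1* was at -1.37 and *Gng13* at -0.96, and with the glial score as a term the median was -0.16 with 8 above 0, and in neither fit did any of the 35 have an unadjusted p under 0.05. A difference between the effects of the *Htt* mutation with and without *Tyrobp* was not detectable for any of these genes with these samples.

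Each gene was set against the levels of 4 lists of markers (astrocytes, oligodendrocytes, microglia and MSNs) across the 18 samples, in 140 relations per measure with Benjamini-Hochberg adjustment and permutation tests with 100000 resamples. *Cplx2* followed the astrocyte level (Pearson's r = 0.94, permutation p = 1e-05, adjusted p = 7.78e-05, Spearman's rho = 0.86, permutation p = 1e-05, adjusted p = 0.000127, the p of 1e-05 being the smallest these resamples can give). Pearson's r was 0.91 without the 2 samples farthest from the median astrocyte level, 0.96 in the 9 females and 0.84 in the 9 males. Its relation with the MSN level did not pass (Pearson's r = 0.48, permutation p = 0.0466, adjusted p = 0.0944, Spearman's rho = 0.5, permutation p = 0.0375, adjusted p = 0.0839). *Rbfox3* showed the reverse: with the MSN level it had Pearson's r = 0.93, permutation p = 1e-05, adjusted p = 7.78e-05, Spearman's rho = 0.96, permutation p = 1e-05, adjusted p = 9.33e-05, with r = 0.92 without the 2 farthest samples, 0.93 in females and 0.94 in males. With the astrocyte level it had Pearson's r = 0.37, permutation p = 0.133, adjusted p = 0.207, Spearman's rho = 0.24, permutation p = 0.34, adjusted p = 0.458, with r = 0.62 in females and -0.17 in males.

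Over the 35 genes, Pearson's r with the astrocyte level ran from -0.05 to 0.94 and passed an adjusted p of 0.05 for 16 genes, all positive. With the MSN level it ran from -0.39 to 0.95 and passed for 25 genes, all positive. With the microglial level it ran from -0.89 to 0.42 and passed for 19 genes, all negative, and with the oligodendrocyte level 1 gene passed, with a negative r. An r of at least 0.8 was reached with the astrocyte level alone by 9 genes (*Vamp2*, *Cplx1*, *Cplx2*, *Camk2a*, *Nrgn*, *Nefl*, *Map2*, *Thy1* and *Gng13*) and with the MSN level alone by 15 (*Syt1*, *Stx1a*, *Syn2*, *Bsn*, *Slc32a1*, *Grin1*, *Grin2a*, *Grin2b*, *Gria1*, *Shank3*, *Homer1*, *Dlgap1*, *Nefm*, *Rbfox3* and *Eno2*). In the 9 females all 9 genes of the astrocyte set had an r of at least 0.9, but in the 9 males only *Cplx1* (0.83) and *Cplx2* (0.84) reached 0.8, and the other 7 ran from 0.43 (*Nrgn*) to 0.78 (*Vamp2*). Without the 2 samples farthest from the median astrocyte level, *Camk2a* (0.79) and *Nrgn* (0.7) fell short of it. Of the 15 genes of the MSN set 13 reached 0.8 in females and 13 in males, with 0.75 the lowest. Without the 2 samples farthest from the median MSN level, *Stx1a* (0.73) and *Slc32a1* (0.79) fell short of 0.8. Over all 18 samples, *Dlg4* reached 0.8 with both levels and 10 genes with neither, *Tubb3* and *Stmn2* among them. Of the 6 genes that DESeq2 called between Q175 and WT 5 are in the set of 9, and *Grik1* is in neither set. This limit of 0.8 was set after the values were seen, and the sets describe these libraries, in which counts of all genes are relative to 1 total.

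**Figure D5:**
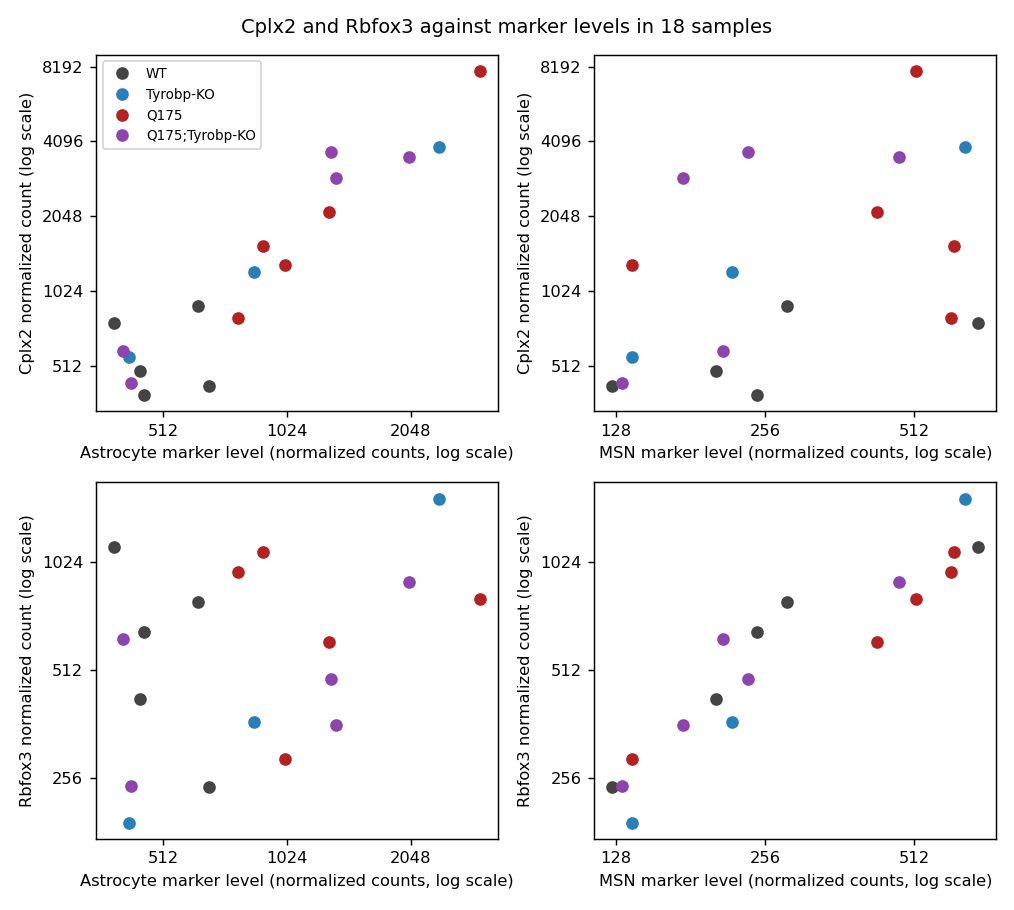
Normalized counts of Cplx2 (upper row) and Rbfox3 (lower row) in the 18 samples against the geometric mean of astrocyte markers (left column) and of MSN markers (right column), all on log scales, colored by genotype. Points lie along a line for Cplx2 with astrocyte markers and for Rbfox3 with MSN markers, and are scattered in the other 2 panels.

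Further genes of the same roles, listed for what they are known to do, were counted in the same fits. Between Q175 and WT, 19 of 24 further presynaptic genes tested had a fold change above 0, with a median of 0.24 on the log2 scale, 3 at an unadjusted p under 0.05 and 0 called by either tool. All 25 further postsynaptic genes were above 0, with a median of 0.39, 4 at an unadjusted p under 0.05, 0 called by edgeR and 1 by DESeq2. These counts stand beside 46.7% of all genes above 0, 5.47% higher at an unadjusted p under 0.05, 0.0% called by edgeR and 1.28% by DESeq2. Of 13 further cytoskeletal and axonal genes, 12 were above 0, with a median of 0.57, 5 at an unadjusted p under 0.05, 0 called by edgeR and 2 by DESeq2. Their level was 423, 525, 495, 525 and 398 in WT and 674, 603, 637, 1319.6 and 659 in Q175, with no overlap. *Kif5a*, a motor of axonal transport and the most abundant of them, had 1083, 1589.7, 1534, 5389.6 and 3435 normalized counts in WT and 9872, 1412, 6915, 17913 and 5554 in Q175. Of 10 further pan-neuronal genes 7 were above 0, with a median of 0.17 and 0 at an unadjusted p under 0.05. The most abundant of these, the long noncoding RNA *Meg3*, had 16900.1, 11283, 27182, 22145 and 4688 in WT and 12466, 18267, 18850.4, 19617 and 10070.1 in Q175, and the groups overlapped.

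In Q175;Tyrobp-KO against Q175 the same lists had medians of -0.37, -0.61, -0.21 and -0.43, with 3 of 24, 1 of 25, 3 of 13 and 1 of 10 genes above 0 (background 44.9%), and 0 genes called by either tool (background 0.0111% in edgeR and 0.232% in DESeq2). In Tyrobp-KO against WT the medians were -0.09, -0.12, 0.77 and -0.06 in the same order, and DESeq2 called 3 of the 13 cytoskeletal and axonal genes and 0 of the others (background 0.935%). The level of the cytoskeletal and axonal list was 620, 544 and 1074 in Tyrobp-KO, with all 15 pairs above WT.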

How the data were processed

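RNA from CD11b-selected striatal microglia was sequenced after SMART-Seq v4 amplification, in libraries without strand. Per the study's methods, the authors used STAR for alignment and featureCounts to assign reads to genes, and deposited raw counts. The labels name a human build and the methods GRCm38, and all 55536 gene IDs are in GENCODE M21 (GRCm38), which gave symbols, positions and exon lengths. Columns of 18 labelled samples were used, and 2 columns with no sample in the labels were not.

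A gene entered a fit if any of its samples reached 1 CPM, here by plain library totals. It was tested with edgeR 4.0.16 (R 4.3.3): TMM, the quasi-likelihood test and Benjamini-Hochberg adjustment at an FDR of 0.1, on the samples of each comparison, and on all 4 groups for the interaction. DESeq2 1.42.0, the study's tool, was an alternative, beside other scalings, filters, terms for sex and a glial score, robust fitting and samples left out. Role levels are geometric means of normalized counts plus 1. Correlations used log2 values. The scripts were tested on simulated data.

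Values in every sample are given, per role, for the 2 genes highest per kilobase and the 2 with the largest fold change between Q175 and WT, for genes called by either tool, and for those the study lists for synaptic transmission. The members and lists were chosen with earlier results of these data known. Groups come from the labels, which do not say that samples came from separate mice. The labels give 2 striata per sample, whereas the study's methods describe a single striatum. The p-values therefore measure the spread between these samples. Intervals on shares cover counting error only. Shared exonic bases make the counts of *Nefl*, *Nefm*, *Syn1*, *Syn2*, *Gng13*, *Grin1*, *Slc32a1*, *Shank3*, *Bsn*, *Grin2b*, *Gria2*, *Dlgap1* and *Map2* uncertain.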

Additional observations from a re-analysis of the deposited data

Results flagged for a closer look

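Dixon's criterion was applied to the 13 genes chosen by the naming rule and to 5 levels (all 35 genes and the 4 roles), in the 3 genotypes with 5 samples. The other 22 genes were not examined in this way. Of these 54 groups of 5 samples, 13 had a highest or lowest sample that stood far from the other 4. The criterion marks about 1 group in 20 by chance where groups are separate. These groups share samples and correlated genes, and the levels hold the same genes. The naming rule also takes genes with large differences between Q175 and WT. The 13 can therefore not be set against that rate. In 12 of the 13 the sample was Q175 replicate 14, and it was the highest. These were *Vamp2* (2396 normalized counts), *Cplx1* (1379), *Cplx2* (7887), *Camk2a* (11641), *Nefl* (1179), *Map2* (13232), *Thy1* (543) and *Gng13* (304), the level of all 35 genes (1251) and the levels of the presynaptic (1199), cytoskeletal (921) and other neuronal genes (631). The astrocyte level of that sample was 3017, the highest of the 18, and its MSN level of 517 was within the range of the other Q175 samples. The remaining one was *Eno2* in Q175;Tyrobp-KO replicate 5, with 936 normalized counts, in which the MSN level (478) was also the highest of its group. The part of the astrocyte and MSN RNA in these values was not tested.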

How the results depend on the processing

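edgeR called 0 of the 35 genes in each of the 5 comparisons under every edgeR setting tried. Between Q175 and WT DESeq2 called 6, or 2 with the glial score as a term and 0 with sex as a term, and with 1 sample left out it called from 1 (without Q175 replicate 3) to 6, with 5 without Q175 replicate 4 and 2 without each of 5 samples. In Tyrobp-KO against WT DESeq2 called 1 gene (*Cplx1*) and 1 with the glial score as a term (*Stmn2*). The DESeq2 fits with sex, with the glial score or with a sample left out were chosen after seeing the data. The median log2 fold change of the 35 genes between Q175 and WT was 1.03 in edgeR and 1.04 in DESeq2 with the glial score as a term. That score was partly confounded with genotype. With 1 sample left out, the medians ran from -0.62 (without Tyrobp-KO replicate 20) to 0.57 for Tyrobp-KO against WT, from -0.52 to 0.88 (without Tyrobp-KO replicate 20) for Q175;Tyrobp-KO against Tyrobp-KO and from -1.05 to 0.04 (without Tyrobp-KO replicate 20) for the interaction. Between Q175 and WT the fold change of up to 8 of the 35 genes (without Q175 replicate 14) turned sign, and of 4 by total counts. Among the 13 genes chosen by the naming rule, 3 turned. *Vamp2* was at -0.0016 in edgeR and -0.02 in DESeq2 with the glial score as a term. *Tubb3*, from -0.27 to 0.07 in edgeR with 1 sample left out, was above 0 without WT replicate 7 (0.04, DESeq2 0.03) and without Q175 replicates 3 (0.05, 0.02), 4 (0.05, 0.01) and 9 (0.07, 0.07). *Rbfox3*, from -0.03 to 0.5, was below 0 without WT replicate 8 (-0.03 with both tools) and without Q175 replicate 9 (-0.00085, edgeR). The cause of these changes was not tested. Of 353 values that answer a comparison 334 stayed within the spread between replicates or within 1.5 times the count. The scarcest gene, *Gng13*, had as few as 9.07 normalized counts in a sample. No paired analysis was possible because each replicate number belongs to a single group.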
